A study of Triticum aestivum with 4 samples.

Results

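Paired TaCCA1-7D peaks are neighbouring DNA binding peaks whose summits lie 2000 bp or less apart, with no further peak within that distance of either partner. They were taken from the deposited list of 467343 peaks by sorting the summits along each chromosome and linking neighbours 2000 bp or less apart. The 7213 peaks on unplaced scaffolds were left out. Of the 460130 peaks on the 21 chromosomes, 36260 fell into 18130 pairs, which is 7.88% (95% Wilson interval 7.80 to 7.96%, counting error only). A further 423202 peaks were single, and 668 lay in 220 chains of 3 and 2 chains of 4. The pairs were chosen by the measured positions of the summits, so their total number and their spacing are given as a description without a test.

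The study used DNA affinity purification followed by sequencing (DAP-seq), in which sheared, naked genomic DNA is mixed with a resin-bound transcription factor and what stays bound is sequenced. The bait was TaCCA1-7D fused to maltose binding protein, and the DNA came from leaves of 2-week-old seedlings of the wheat cultivar Fielder, grown with 16 h of light and 8 h of dark. For TaCCA1-7D 2 libraries were made, and for the input 2. The list holds 1 set of values and does not separate the libraries, so their depth and spread could not be taken from it. The study's supplement gives read counts and a correlation for the 2 TaCCA1-7D libraries, with far more reads in the second. These were not used here, and the input was not analysed.

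CCA1 is a MYB-related transcription factor of the plant circadian clock. In Arabidopsis it is most abundant around dawn and represses genes of the evening through a short A- and T-rich site, the evening element, and it can bind as a dimer. Because the DNA is free of chromatin, a peak marks where the protein bound in vitro, and not where it sits in the cell. Bread wheat carries the A, B and D subgenomes, each with 7 chromosomes, so every chromosome has a homoeolog in the other two subgenomes.

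The strands of the probes that the study made from target promoters on chromosomes 1D, 2B and 3B are examples of bound sites. The AATATC core is in capitals. The study also counts many DAP-seq peaks without AATATC, so the probes do not stand for every peak. The probes are shown because the genome sequence under the paired peaks was not used here.
DAP1-R, TraesCS1D02G226100: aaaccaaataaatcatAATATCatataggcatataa
DAP2-R, TraesCS1D02G295200: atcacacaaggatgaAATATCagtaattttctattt
DAP3-R, TraesCS2B02G491700: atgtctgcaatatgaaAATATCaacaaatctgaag
DAP4-R, TraesCS3B02G186700: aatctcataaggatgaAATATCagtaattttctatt
Each of the 4 strands is written 5′ to 3′ and holds AATATC once. The genes code for a chlorophyll synthesis enzyme (DAP1), photosystem II proteins (DAP2 and DAP4) and a starch synthase (DAP3). Whether their promoters carry a paired peak was not analysed, since the gene positions of this genome build were not used.

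The summits of a pair lay a median of 927.5 bp apart, with quartiles at 598 and 1459 bp and a range of 268 to 2000 bp. Short spacings were the most frequent. There were 707 pairs at 301 to 400 bp, 1935 at 401 to 500 bp and 1921 at 501 to 600 bp. The number then declined to 746 pairs at 1301 to 1400 bp and reached a second, lower maximum of 939 at 1601 to 1700 bp. In a list restricted to a fold enrichment above 7 the second maximum was not seen, with 65 pairs at 1201 to 1500 bp and 44 at 1501 to 1800 bp. The full list held 2299 and 2666 pairs in these ranges. Over the 21 chromosomes the median spacing ranged from 866 to 1018 bp. No exact spacing stood out. The most frequent, 476 bp, was found in 32 of the 18130 pairs, or 0.177%, among 1709 different spacings.

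**Figure D1:**
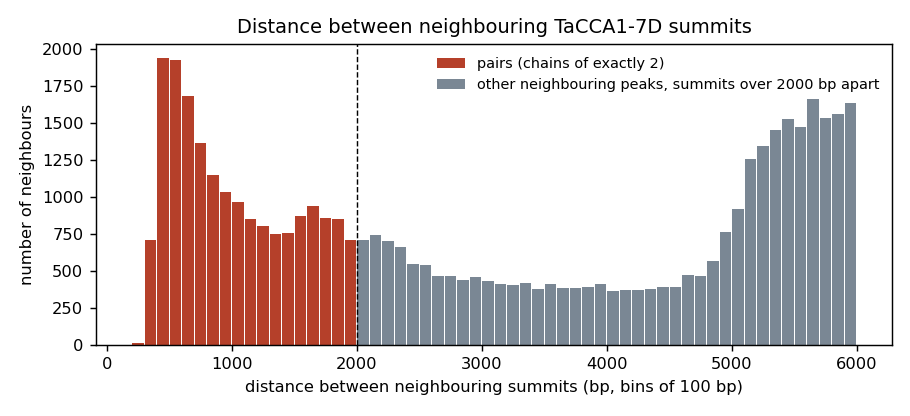
Number of neighbouring summits in bins of 100 bp of their distance, for pairs (red) and for all neighbours more than 2000 bp apart (grey), up to 6000 bp. Pairs were most frequent at 401 to 600 bp and had a second maximum of 939 at 1601 to 1700 bp, and the count did not step at the dashed 2000 bp limit. Beyond this limit the count was lowest, at 364, in the bin up to 4100 bp, and it rose to 1632 in the bin up to 6000 bp.

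The limit of 2000 bp did not fall on a step in the distances, with 706 pairs at 1901 to 2000 bp and 708 neighbours at 2001 to 2100 bp. Further out the count fell to 364 neighbours in the 100 bp up to 4100 bp. It then rose to 759 in the 100 bp up to 5000 bp and to 1632 in the 100 bp up to 6000 bp. The reason for this rise was not tested. Just inside it, at 2000 bp, the peaks on chromosome 1A from 41088623 to 41089087 and from 41090798 to 41091034 had fold enrichments of 5.77 and 5.47. Another pair at 2000 bp on 1A, from 467356732 to 467357413 and from 467358932 to 467359240, had 6.81 and 6.41. Just outside, at 2001 bp, the peaks on 3B from 100667135 to 100667728 and from 100669308 to 100669933 had 5.33 and 7.88, and those from 258653474 to 258654061 and from 258655651 to 258656186 had 5.81 and 5.32. All coordinates are those of the authors' genome build.

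No peaks overlapped, and the gap between the facing edges of partners had a median of 492 bp and a minimum of 125 bp. A pair spanned a median of 1355 bp from its first to its last base, of which a median of 38.5% lay between the peaks. The closest summits, 268 bp apart, were on chromosome 5D, in peaks from 332892298 to 332892499 and from 332892643 to 332892823, with fold enrichments of 5.55 and 6.17. These peaks had 8 and 9 tags at their summits. The next closest were on 7D (279 bp, from 153106514 to 153106715 and from 153106849 to 153107091) and on 6B (284 bp, from 609837231 to 609837673 and from 609837821 to 609838024). The 7D pair had 13 and 10 tags and the 6B pair 8 and 8, so 5 of these 6 peaks had 10 tags or fewer.

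The peak caller numbered its peaks before the filter, and 17621 pairs, or 97.2%, carried consecutive numbers. In 504 pairs 1 number was missing between the partners, at a median spacing of 1418 bp, and in 5 pairs 2 numbers were missing. If the numbers run along the chromosome, a called peak that failed the authors' filter lay between the partners of these 509 pairs.

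A further peak close by was found less often around pairs, a difference that was not tested. From a pair to the nearest summit outside it the median distance was 13568 bp, against 12970 bp from a single peak to its nearest neighbour. A further summit within 5000 bp was found for 405 pairs, or 2.23%, and for 27775 single peaks, or 6.56%. The limit of 5000 bp lies on the rise in the distances described above. The rule keeps other summits more than 2000 bp away from pairs and single peaks alike.

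Paired peaks had lower fold enrichments than single peaks. The fold enrichment, the ratio of the tags piled up at the summit to the local background with 1 tag added to each, had a median of 5.91 in paired peaks, with quartiles at 5.47 and 6.67, against 6.22 with quartiles at 5.55 and 7.40 in single peaks. The highest was 27.5 in a paired peak and 35.3 in a single peak. A fold enrichment above 10 was found for 579 paired peaks, or 1.60% (Wilson interval 1.47 to 1.73%), and for 12711 single peaks, or 3.004% (2.95 to 3.06%), where 2.89% of all peaks on the chromosomes passed it. An FDR below 1e-10 was reached by 13.4% of the paired and 20.3% of the single peaks, against 19.7% of all. The medians of the chromosomes did not overlap, at 5.82 to 5.97 for paired and 6.18 to 6.28 for single peaks. Paired peaks were lower on 21 of 21 chromosomes, by a mean of -0.317 ± 0.0379 (SD over chromosomes). In a list restricted to a fold enrichment above 7, the median was 8.02 in paired and in single peaks. The mean difference over chromosomes was 0.0286 there, above 0 on 9 of 21 chromosomes. The 21 chromosomes come from the same libraries and do not replicate the experiment, so differences between them describe the list. Fold enrichment, pileup, background and width are not independent of a partner close by, so paired and single peaks were compared as a description, with no p-value.

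The fold enrichment could be split into the number of tags at the summit (the pileup) and the local background. The pileup of paired peaks averaged 13.4 tags, with a median of 12 and quartiles at 10 and 15, and that of single peaks averaged 13.1 with the same median and quartiles. The chromosome means of the pileup were higher in paired peaks on 19 of 21 chromosomes, by 0.336 ± 0.323 tags (SD over chromosomes). The local background averaged 1.31 tags in paired peaks and 1.12 tags in single peaks and was higher in paired peaks on 21 of 21 chromosomes. The lowest background in the list, 0.621 tags, was that of 2947 paired peaks, or 8.13%, and of 98130 single peaks, or 23.2%, against 22.0% of all peaks. Its steps fit tags counted in a window of 10000 bp. Whether these are tags of the DAP-seq or of the input libraries is not given in the sources used here, and in the first case they include the tags of the partner. With 20 tags or more there were 7.38% of the paired and 8.07% of the single peaks, against 8.02% of all.

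At a like background the mean pileup of paired peaks was the lower in most classes. Among peaks with a background of 1 to 1.5 tags, chosen after seeing the data, the pileup of paired peaks was lower on every chromosome, by a mean of -1.02 tags, so the direction of the pileup turned. If the background includes the tags of the partner, such classes do not match paired and single peaks on the rest of the window. When the list was relinked with a limit of 1000 bp, at all backgrounds together, the pileup difference also turned, to -0.415 tags. Single peaks then include those with a neighbour beyond 1000 bp and up to 2000 bp away. With a background of 0.8 to 1 tag the mean pileup was 11.1 in paired and 12.2 in single peaks, and at the lowest background it was 9.19 and 9.54. In the class above 3 tags, with 372 paired and 2588 single peaks, was the mean higher in pairs, at 41.3 against 34.2 tags.

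Paired peaks were also narrower. Their median width was 371 bp, with quartiles at 268 and 509 bp, against 494 bp with quartiles at 338 and 674 bp in single peaks. The widest paired peak had 1540 bp and the widest single peak 2165 bp. A width of at least 1000 bp was found for 158 paired peaks, or 0.436%, and for 17300 single peaks, or 4.09%, with 3.79% of all peaks. The median was lower in paired peaks on 21 of 21 chromosomes, by -124.1 ± 6.37 bp (SD over chromosomes), and the chromosomes ranged from 356 to 382 bp for paired and from 485 to 505 bp for single peaks. The difference was seen at each height. Peaks of 8 or 9 tags had a median of 269 bp when paired and 349 bp when single, and peaks of 20 to 29 tags had 497 and 688 bp. A partner close by bounds a peak on that side, so width is not fully independent of the rule. The median width of paired peaks was 289 bp at spacings of 251 to 500 bp and 416 bp at 1751 to 2000 bp, which is still below that of single peaks.

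**Figure D2:**
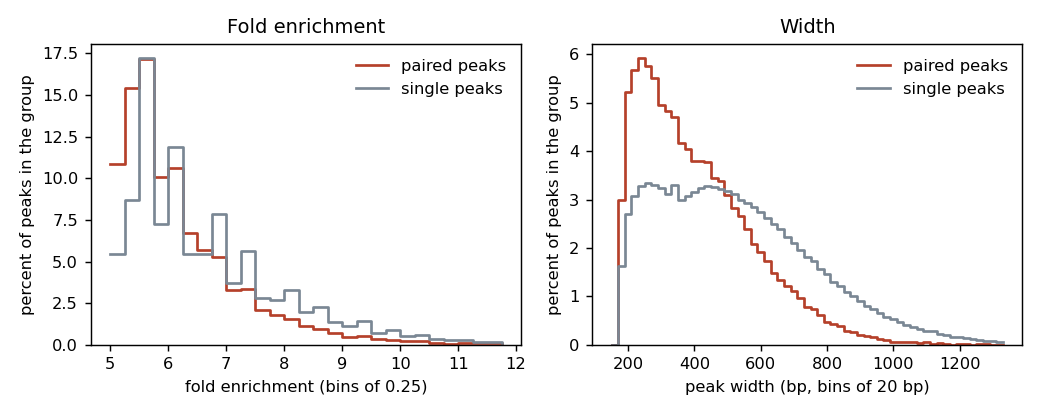
Percent of paired (red) and single (grey) peaks in bins of fold enrichment, up to 12, and of peak width in bp, with the widest peaks not drawn. Paired peaks lie at lower fold enrichment (median 5.91 against 6.22) and at smaller width (371 against 494 bp).

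The values of a pair changed with its spacing. The mean background was 1.04 tags at 251 to 500 bp and 1.57 tags at 1751 to 2000 bp, and the mean pileup was 11.8 and 14.5 tags. The median fold enrichment was highest at 751 to 1000 bp, at 6.003, and lowest at 1751 to 2000 bp, at 5.77. A fold enrichment above 10 was most frequent at 501 to 750 bp, in 2.72% of the peaks, and least frequent at 1751 to 2000 bp, in 0.459%.

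The summits of the closest pairs lay toward each other. The rule used the distance between summits, and at a short distance they have to lie near the facing edges, so their place in the peak is given with no test. Over all pairs, 52.4% of the summits were on the partner's side of the midpoint of their own peak (Wilson interval 51.9 to 52.9%), and on 20 of 21 chromosomes the share was above 50%. The share was 70.6% at 251 to 500 bp, 53.5% at 501 to 750 bp and 46.4% at 751 to 1000 bp. With summits over 750 bp apart, a limit chosen after seeing the data, the direction turned, to a mean of -2.30 percentage points from 50%.

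**Figure D3:**
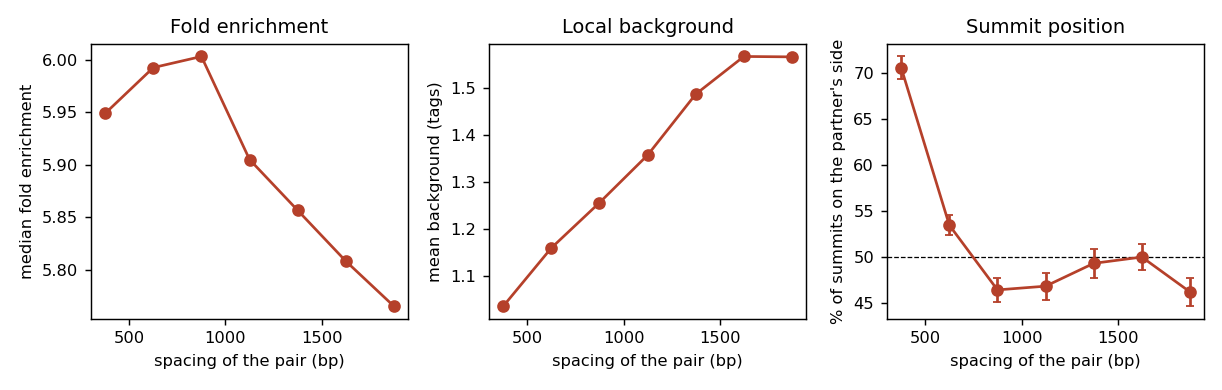
Median fold enrichment, mean local background in tags, and percent of summits on the partner's side of the peak midpoint with 95% Wilson intervals, for pairs in 250 bp classes of spacing. The first 2 axes do not start at 0. The background is higher in wider pairs (1.04 to 1.57 tags), and the share of summits toward the partner is 70.6% in the closest class.

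In the full list the fold enrichments of the partners were almost unrelated. Spearman's rho between partners was 0.0236 over the 18130 pairs, and 0.0261 between 405646 neighbouring single peaks. By chromosome it ranged from -0.0420 to 0.0733. Pearson's r of the log2 values, which weighs strong peaks more, was 0.0723 in pairs and 0.0279 in neighbouring single peaks. Partners share a library, a depth and most of a background window, and peaks are not replicates, so correlations are given as descriptions without a p-value. The stronger partner had a median of 1.13 times the fold enrichment of the weaker, with an upper quartile of 1.27, against 1.18 and 1.34 for neighbouring single peaks. A ratio above 2 was found in 163 pairs, or 0.899%, and in 1.24% of the single neighbours.

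The pileups of the partners went together. Their rho was 0.623, against 0.0504 for neighbouring single peaks, and 18.1% of the pairs had the same pileup at the 2 summits, against 8.85%. The background moved with it, with a rho of 0.982 in pairs and 0.107 in neighbouring single peaks. Among the 1359 pairs with both partners at the lowest background the rho of the pileups was 0.0812, against 0.0153 for single neighbours. In the classes between 0.622 and 3 tags it ranged from -0.00603 to 0.171. In the 165 pairs with both partners above 3 tags it was 0.729, and in the 319 single neighbours of that class it was 0.647.

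**Figure D4:**
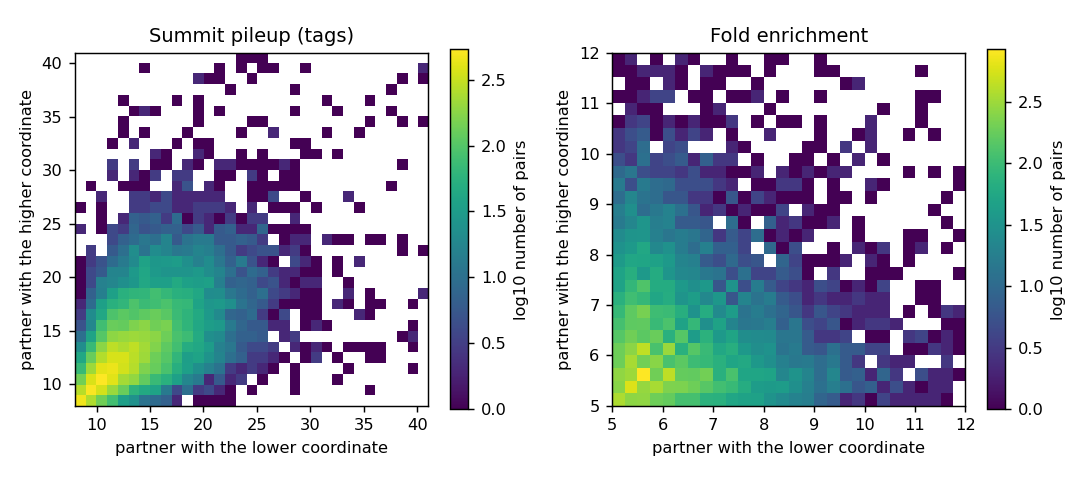
Number of pairs (log10 colour scale) by the summit pileup in tags and by the fold enrichment of the 2 partners, with the partner of lower coordinate on the x axis. Pileups lie along the diagonal (rho 0.623), fold enrichments do not (rho 0.0236), and stronger pairs beyond the axes are not drawn. The filter on fold enrichment ties the pileup to the background, which partners share.

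The few strong pairs are described next. A fold enrichment above 10 in both partners was found in 35 pairs, and in 1 partner alone in 509. Of the paired peaks above 10, 12.1% thus had a partner above 10, against 3.95% of such single peaks with their neighbour. In a list restricted to a fold enrichment above 7, where the same limit holds at any background, the rho of the fold enrichments was 0.219 over 687 pairs and 0.00782 between neighbouring single peaks. With an FDR below 1e-10 it was 0.499 over 535 pairs and 0.0217 between single neighbours. There the background enters the limit. The rho of the background was 0.995 in these pairs and 0.994 in the pairs of the list above 7. With backgrounds under 3 tags, the rho of the fold enrichments was 0.542 over 430 pairs with an FDR below 1e-10. It was 0.218 over 668 pairs in the list above 7. The part of the background in these values was not tested.

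Widths of partners were almost unrelated too in the full list. The rho of the widths was -0.0231 in pairs and 0.0199 in neighbouring single peaks, and by chromosome it ranged from -0.0996 to 0.0714. The wider partner had a median of 1.51 times the width of the narrower, against 1.56 for single neighbours, and the ratio was above 2 in 25.5% of the pairs and 29.7% of the single neighbours. Within pairs the rho was lowest, at -0.153, at spacings of 501 to 750 bp, and it was -0.0885 at 251 to 500 bp. In 62.9% of the 16470 pairs that differed in fold enrichment and width, the stronger partner was also the wider, against 59.96% of the single neighbours. Neither side was favoured, since the partner with the lower coordinate was the stronger in 49.7% of the pairs with unequal values.

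The 5 strongest pairs lay on D chromosomes. The pair with the highest fold enrichment in its weaker partner was on chromosome 4D, from 311093937 to 311094256 and from 311094652 to 311094934, with fold enrichments of 19.5 and 18.4, 65 and 61 tags, and summits 686 bp apart. The second, also on 4D, from 298440353 to 298440634 and from 298441007 to 298441342, had 16.6 and 13.2 at 666 bp. The third was on 6D, from 383611748 to 383611996 and from 383613124 to 383613672, with 12.8 and 16.0 at 1420 bp. The fourth was on 2D, from 348530475 to 348530760 and from 348531059 to 348531327, with 12.6 and 18.7 at 581 bp. The fifth was on 4D, from 22541494 to 22541745 and from 22542113 to 22542729, with 12.02 and 13.0 at 629 bp. The 35 pairs with both partners above 10 were nevertheless spread over 16 chromosomes, with 12 on A, 13 on B and 10 on D, or 0.186, 0.186 and 0.214% of the pairs of each subgenome. Their median spacing was 679 bp, and 28 of them had summits 1000 bp or less apart.

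The most unequal pair was on chromosome 3D, where a peak from 83106118 to 83106293 had a fold enrichment of 5.24 and its partner from 83106558 to 83106832 had 27.3, with 13 and 73 tags 497 bp apart. On 1A the peak from 67135494 to 67135793 had 26.3 and its partner from 67136104 to 67136656 had 5.23. On 5D the peak from 262084138 to 262084464 had 26.6 and its partner from 262085038 to 262085245 had 6.14. In each of these pairs the backgrounds of the partners lay close together, at 1.67 and 1.71, at 3.45 and 3.59, and at 1.44 and 1.44 tags, so the difference was one of tags at the summit.

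The share of peaks that were paired differed between the subgenomes in the full list. It was 7.84 ± 0.173% on A, 8.34 ± 0.200% on B and 7.33 ± 0.256% on D (SD over 7 chromosomes), and in 7 of 7 homoeologous groups it was highest on B and lowest on D. The lowest chromosome was 2D with 7.06% and the highest 6B with 8.58%. A was below B by -0.497 percentage points and above D by 0.517, and B was above D by 1.01 (exact two-sided sign-flip permutation test over 7 homoeologous groups, adjusted p = 0.0156 for each, the smallest that 7 groups allow). None of the 3 differences passed the same exact permutation test in a list with an FDR below 1e-10, where A minus B was -0.281 (adjusted p = 0.258), A minus D turned to -0.0268 (adjusted p = 0.812) and B minus D was 0.254 (adjusted p = 0.258). That list has 535 pairs, with 1.18% of its peaks paired against 7.88% in the full list, so its percentage points are on a smaller scale. With a fold enrichment above 7, where 1.00% of the peaks were paired, A minus B was -0.230 and B minus D was 0.353. Both passed (adjusted p = 0.0234 for each, exact permutation test). A minus D was 0.123 in that list and did not pass (adjusted p = 0.234, exact permutation test). There were 6462 pairs on A, 6989 on B and 4679 on D, or 1.31, 1.35 and 1.18 pairs per Mb up to the last peak.

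The excess on B over A was larger among the wider pairs. Pairs with summits 1000 bp or less apart held 4.36 ± 0.186% of the peaks on A, 4.41 ± 0.195% on B and 3.94 ± 0.175% on D. There A minus B was -0.0538 percentage points, with A higher in 2 of 7 groups. Pairs with summits further apart held 3.49 ± 0.186% on A, 3.93 ± 0.185% on B and 3.38 ± 0.107% on D. There A minus B was -0.443 percentage points, with A lower in 7 of 7 groups. A minus D was 0.104, with A higher in 5 of 7 groups. This split was chosen after seeing the data and uses the spacing that chose the pairs, so it is a description with no p-value. Whether the difference between A and B itself differs between the 2 classes was not tested. The mean background of paired peaks was 1.27 tags on A, 1.34 on B and 1.32 on D, and its part in these differences was not tested.

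**Figure D5:**
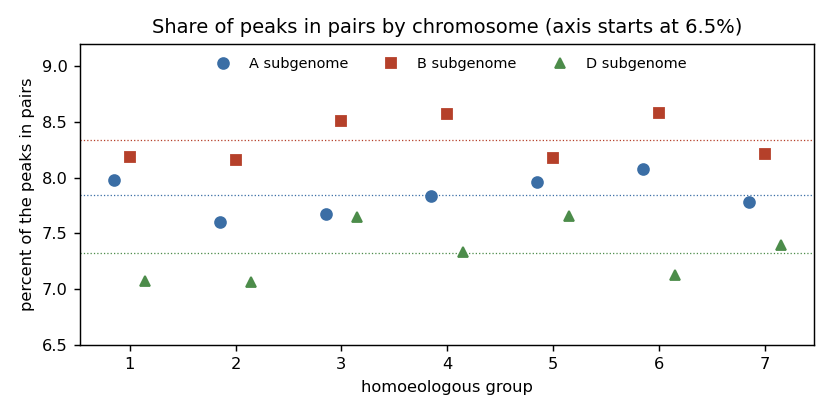
Percent of the peaks of each chromosome that lie in pairs, by homoeologous group, for the A (circles), B (squares) and D (triangles) subgenomes, with dotted lines at the means of 7 chromosomes. The axis starts at 6.5%. B is highest and D lowest in 7 of 7 groups.

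Along the chromosomes the share of paired peaks varied little. In 20 equal parts of the chromosome length, 7.13 to 8.38% of the peaks were paired, with the highest share in the first 5%. In the outer 10% at each end the share was 8.01 ± 0.633%, against 7.79 ± 0.485% in between (SD over 21 chromosomes). The ends had the larger share on 14 of 21 chromosomes, and the mean difference of 0.216 percentage points did not pass the test (exact sign test, adjusted p = 0.189). With an FDR below 1e-10 it was 0.509 and passed the test (adjusted p = 0.00186, exact sign test). That list has 535 pairs over the 21 chromosomes, and 1.18% of its peaks were paired, so its points are on a smaller scale. With a fold enrichment above 7 the difference was 0.0320, with the larger share at the ends on 11 of 21 chromosomes, and did not pass.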

How the data were processed

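The authors trimmed the reads with Trimmomatic, aligned them to an Ensembl wheat genome with Bowtie2 2.3.4, filtered them with SAMtools 1.9, removed duplicates with Picard and called peaks with MACS2. The deposited peaks all lie above 5 in fold enrichment and below 1e-05 in FDR, the filter that the methods name. How the libraries were combined and which control was used are not given in the sources used here.

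The deposited list gives for each peak its position, a whole-number score (not used), the fold enrichment (a ratio by the authors), the −log10 p-value and −log10 q-value of the authors' caller, and the summit. Solving the fold enrichment and the −log10 p-value together with 1 tag added to pileup and background, gave the background and a whole-number pileup, with a misfit under 0.0001 for 100.0% of the peaks. Depth per library is not in the list, and the precision of a peak is limited by its tags. The recovery and the linking of peaks were tested on simulated data.

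Paired and single peaks were compared by chromosome medians (fold enrichment, width) or means (pileup). Exact two-sided sign tests over chromosomes were computed for fold enrichment, pileup, width, the place of the summit and the chromosome ends and adjusted over these 5, and only that of the ends is given, since the other measures are not independent of how pairs were chosen. Subgenomes were compared with exact sign-flip permutation tests over homoeologous groups, adjusted over 3 differences. Adjusted p-values follow Benjamini-Hochberg, with a threshold of 0.05. Single neighbours are consecutive single peaks of a chromosome. The pairs named are those with the highest weaker partner (5), the largest ratio (3), the shortest spacing (3) and those at the 2000 bp limit. Alternatives were a limit of 1000 bp, an FDR below 1e-10, a fold enrichment above 7, edge gaps in place of summit distances, Pearson's r, unmatched chromosomes and the outer 20%. The members, lists and tests were chosen with earlier results of these data known. The software was Python 3.11.15 with scipy 1.17.1, pandas 2.3.3, numpy 2.4.6 and matplotlib 3.10.9.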

Additional observations from a re-analysis of the deposited data

Results flagged for a closer look

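The agreement of partner widths on chromosome 2B stood apart from the other B chromosomes. Its rho was 0.0714, against -0.0468 to 0.00409 on the other 6. Of 21 sets of 7 chromosomes looked at in this way 1 stood out, and chance gives about 5%.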

How the results depend on the processing

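No paired analysis was possible because the list does not separate the libraries, and no replicate could be left out for the same reason. The pairs were rebuilt under each alternative, which gave 19796 paired peaks with a limit of 1000 bp, 1070 with an FDR below 1e-10 and 1374 with a fold enrichment above 7, against 36260. Of the 535 and 687 pairs of these last lists, 520 and 671 were also pairs of the full list. The width difference kept its direction under every alternative run, from -244.7 to -114.2 bp. With the 1000 bp limit the median spacing was 617 bp, the pileup difference turned to -0.415 tags, the background difference was 0.0314 tags and A minus B was -0.0498 percentage points (adjusted p = 0.531, exact test). With an FDR below 1e-10 the background difference was 1.24 tags, the summit excess toward the partner 2.46 points (above 0 on 12 of 21 chromosomes), the excess near ends 0.509, the rho of fold enrichments 0.499 and of widths 0.207, and the subgenome differences were -0.281 (A minus B), -0.0268 (A minus D, turned) and 0.254 (B minus D) points, none of which passed the test. With a fold enrichment above 7 the median spacing was 769 bp and the fold enrichment difference was 0.0286 (above 0 on 9 of 21 chromosomes). In that list the summit excess was 3.89 (above 0 on 14 of 21 chromosomes). The rho was 0.219 and 0.0544, and A minus D was 0.123, which did not pass. A minus B and B minus D passed there. With edge gaps the median spacing was 1074 bp. Pearson's r of fold enrichment was 0.0723. Added after seeing the data, a background of 1 to 1.5 tags turned the pileup difference to -1.02 tags, and summits over 750 bp apart turned the summit excess to -2.30. In pairs up to 1000 bp A minus B was -0.0538, and in wider pairs A minus D was 0.104. Beyond the numbers of peaks left, the causes were not tested. Peaks rest on few tags, with a median of 12.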

Other observations

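Where peaks were dense, more of them were paired. In 1 Mb bins with 26 to 30 peaks 6.86% of the peaks were paired, with 36 to 40 peaks 8.29%, and with more than 50 peaks 11.2%. The rule uses distance, so these shares are a description. At a like density the order of the subgenomes was similar, with the highest share on B in 6 of 7 classes of density and the lowest on D in 6 of 7. In bins with 31 to 35 peaks 7.43% were paired on A, 8.17% on B and 7.30% on D. The exception for B was the class of 21 to 25 peaks, with 7.05% on A against 6.27% on B.

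Of the 14066 bins of 1 Mb that held a peak, 28.3% held no pair, and the median was 1 pair. The most, 8 pairs, were found on chromosome 2D from 25000001 to 26000000, among 41 peaks, and on 6B from 173000001 to 174000000, among 49 peaks.

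Paired peaks had a median width of 371 bp, against 283.5 bp for the 668 peaks in chains of 3 or more. Their median fold enrichment was 5.91, against 5.75 in the chains, and their mean background 1.31 tags, against 1.55 in the chains. These values were not tested.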
